A study of Mus musculus with 3 samples.

Results

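The 9 genes described here encode transcription factors that set or maintain the microglial and myeloid lineages: Spi1, Irf8, Mef2a, Mef2c, Sall1, Runx1, Bhlhe41, Zeb2 and Nfia. They were chosen as a named list of lineage regulators and not by a threshold on measured values, and all 9 were among the 11979 genes listed in all 3 count tables, of 14221 genes listed in any of them. The libraries came from CD11b+ CD45+ cells, the myeloid gate of dissociated mouse brain, profiled with the 10x Genomics droplet 3′ kit. A single library came from an MHC class II-deficient animal, which its label describes as almost without CD4 T cells, and 2 libraries were from adult wild type (WT) mice, WT 1 and WT 2. MHC class II molecules present peptides to CD4 T cells and are needed for those cells to develop. The labels name neither the allele behind the deficiency nor the sex of any animal, and they give an age class for the WT libraries only. With 1 deficient library, the spread between deficient animals was not measured. The p-values for genotype rest on the spread within the WT pair, pooled over genes.

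Spi1 encodes PU.1, the ETS-family factor without which macrophages, including microglia, do not form, and it works with partners such as IRF8 at composite DNA elements. RUNX1 acts in blood cell formation, including the embryonic progenitors from which microglia arise. SALL1 is a zinc finger factor that within the brain's immune cells is known as a microglial identity regulator, and MEF2A and MEF2C are MADS-box factors linked to the adult microglial state. BHLHE41 is an E-box-binding repressor of tissue macrophages, ZEB2 is a zinc finger repressor needed by tissue macrophages to keep their identity, and NFIA is a nuclear factor I protein best known from glial and blood cell development.

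Positions are given on the mm10 build. Spi1 lies at chr2:91082390-91115756 (+ strand), Irf8 at chr8:120736358-120756694 (+), Mef2a at chr7:67231163-67372858 (-), Mef2c at chr13:83504034-83667080 (+) and Sall1 at chr8:89027235-89044162 (-). Runx1 lies at chr16:92601466-92826149 (-), Bhlhe41 at chr6:145858243-145865558 (-), Zeb2 at chr2:44983632-45117395 (-) and Nfia at chr4:97772734-98118874 (+). Mef2a overlaps Lysmd4, and Zeb2 overlaps Zeb2os, on the opposite strand. The strand setting of the counting is not given in the sources used here, so the counts of Mef2a and Zeb2 are uncertain to that extent. None of the 9 shared a same-strand overlap with another gene listed in the tables.

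Sall1, Irf8 and Bhlhe41 were higher in microglia than in each of the other 3 myeloid classes by the main tests given further on. Their promoters are shown because of that shared pattern. Against border macrophages, Irf8 and Bhlhe41 did not pass in an edgeR fit that took no account of library (adjusted p = 0.101 and 0.0506). How many of all tested genes were higher against all 3 classes was not counted. RefSeq promoter windows of 300 bases (GRCm38.p6, ending 50 bases inside the transcript) existed for 8 of the 9 factors, all but Spi1. Windows were searched on both strands for a PU.1 site (GAGGAAGT), an ETS core (GGAAGT, which the PU.1 site contains), an IRF element (a pair of GAAA blocks with 2 bases between them), a GAS element (TTCNNNGAA), a MEF2 site (CTA and TAG with 4 bases between them), a RUNX site (TGTGGT), an E-box (CACGTG) and a ZEB-type E-box (CACCTG). Capitals mark the matches, which are descriptions of letters and not of binding.
Irf8, chr8:120736108-120736407, + strand: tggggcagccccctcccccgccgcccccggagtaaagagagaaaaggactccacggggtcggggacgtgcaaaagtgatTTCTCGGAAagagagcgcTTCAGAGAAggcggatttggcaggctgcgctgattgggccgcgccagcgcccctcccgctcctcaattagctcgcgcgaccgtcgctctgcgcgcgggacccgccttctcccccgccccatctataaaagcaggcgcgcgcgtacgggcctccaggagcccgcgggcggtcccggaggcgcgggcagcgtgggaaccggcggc
Bhlhe41, chr6:145865371-145865670, - strand: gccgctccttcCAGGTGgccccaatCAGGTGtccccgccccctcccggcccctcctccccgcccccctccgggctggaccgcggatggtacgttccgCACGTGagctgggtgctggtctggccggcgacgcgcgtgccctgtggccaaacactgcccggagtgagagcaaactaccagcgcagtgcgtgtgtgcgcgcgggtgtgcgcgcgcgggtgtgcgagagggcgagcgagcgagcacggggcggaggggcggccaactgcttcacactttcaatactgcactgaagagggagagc
Sall1, chr8:89042813-89043112, - strand: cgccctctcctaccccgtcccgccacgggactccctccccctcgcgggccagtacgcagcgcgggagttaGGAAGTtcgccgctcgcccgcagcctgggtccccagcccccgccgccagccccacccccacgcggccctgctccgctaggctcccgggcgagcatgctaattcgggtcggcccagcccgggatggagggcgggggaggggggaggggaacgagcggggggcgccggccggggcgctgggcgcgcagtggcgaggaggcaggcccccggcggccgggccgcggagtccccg
Irf8 had 2 annotated start windows. The one shown held 2 GAS elements, the element that interferon-activated STAT proteins bind, and 8.298% of 32851 promoter windows held at least 1, while the other Irf8 window held no GAS element and 1 ZEB-type E-box. The Bhlhe41 window held 1 E-box, present in 7.15% of windows, and 2 ZEB-type E-boxes, present in 20.21%. Sall1 had 3 annotated start windows, and the one shown held 1 ETS core, present in 23.77% of windows, while none of the letters searched were in the other 2 Sall1 windows.

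Cells were placed in classes by their share of marker UMIs (unique molecular identifiers, 1 per captured RNA molecule), and none of the 9 factors was a marker. After filtering, 2257 cells of the deficient library and 4340 and 4667 cells of WT 1 and WT 2 remained, with median depths of 2824, 3384.5 and 3338 UMIs. Microglia-like cells made up 96.6% of them in the deficient library (2180 cells) and 89.7% and 93.8% in WT 1 and WT 2 (3894 and 4377 cells). Neutrophil-like cells numbered 17 in the deficient library and 271 and 133 in the WT libraries, monocyte-like cells 18 against 50 and 38, and border macrophage-like cells 7 against 33 and 25. Cells within 20% of a marker threshold numbered 165 for microglia, 55 for border macrophages, 73 for classical monocytes, 23 for non-classical monocytes and 12 for neutrophils, and cells passing more than 1 class (1 in the deficient library, 29 and 26 in WT) were left out. The libraries shared 13 to 28 cell barcodes pairwise. H2-Aa, H2-Ab1 and H2-Eb1, the classical MHC class II chains, were not listed in the table of the deficient library and had 2610 to 4448 UMIs each in the WT libraries.

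The 9 factors stood at close to WT levels in microglia-like cells of the deficient library. None of them passed the genotype test, which 9.94% of all tested genes passed. Beside that share, a count of 0 among 9 is not read as a result about the factors. Levels are given as CPM, counts per 1000000 UMIs of the cells summed, without scaling by gene length, so they compare 1 gene across samples and not genes with each other. Spi1 stood at 529.9 CPM in the deficient library, against 546 and 548 CPM in WT 1 and WT 2. Its partner Irf8 stood at 733 CPM in the deficient library, against 770.4 and 735 CPM in WT. Both deficient values lay just below the WT pair. Runx1 stood at 266 CPM in the deficient library, between the WT values of 273 and 252 CPM.

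Sall1 stood at 177 CPM in the deficient library, against 181 and 180.0 CPM in WT 1 and WT 2. Mef2a stood at 612 CPM in the deficient library, against 642 and 656 CPM in WT. Mef2c stood at 1141 CPM in the deficient library, against 1066 and 1068 CPM in WT. Mef2c was thus the 1 factor with a deficient value above both WT values. Bhlhe41 stood at 211 CPM in the deficient library, between the WT values of 214 and 189 CPM. Nfia stood at 72.2 CPM in the deficient library, between the WT values of 76.5 and 66.2 CPM.

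Zeb2 showed the widest genotype gap of the 9, with 743 CPM in the deficient library, against 952 and 826 CPM in WT 1 and WT 2. The WT pair itself spanned 0.19 on the log2 scale for Zeb2. Exact Poisson 95% intervals, which cover counting error only, ran from 722 to 764 CPM in the deficient library, from 936 to 969 CPM in WT 1 and from 812 to 840.1 CPM in WT 2. When each cell was thinned to 1000 UMIs, Zeb2 was seen in 51.3% of deficient microglia-like cells, against 59.3% and 54.0% in WT. Before thinning, at median depths of 2824 UMIs in deficient and 3377 and 3324 UMIs in WT microglia-like cells, the shares were 83.5% in deficient cells, against 90.5% and 88.7% in WT cells. In neutrophil-like cells, at median depths of 2177 UMIs in deficient and 2993 and 3150 UMIs in WT cells, 5.88% had a Zeb2 UMI in the deficient library, against 11.8% and 15.04% in the WT pair, and after thinning the shares were 6.67% in the deficient library, which is 1 of 15 cells, against 3.42% and 3.28% in the WT pair. In these sums, fewer cells with the transcript and less RNA per cell cannot be told apart.

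**Figure D1:**
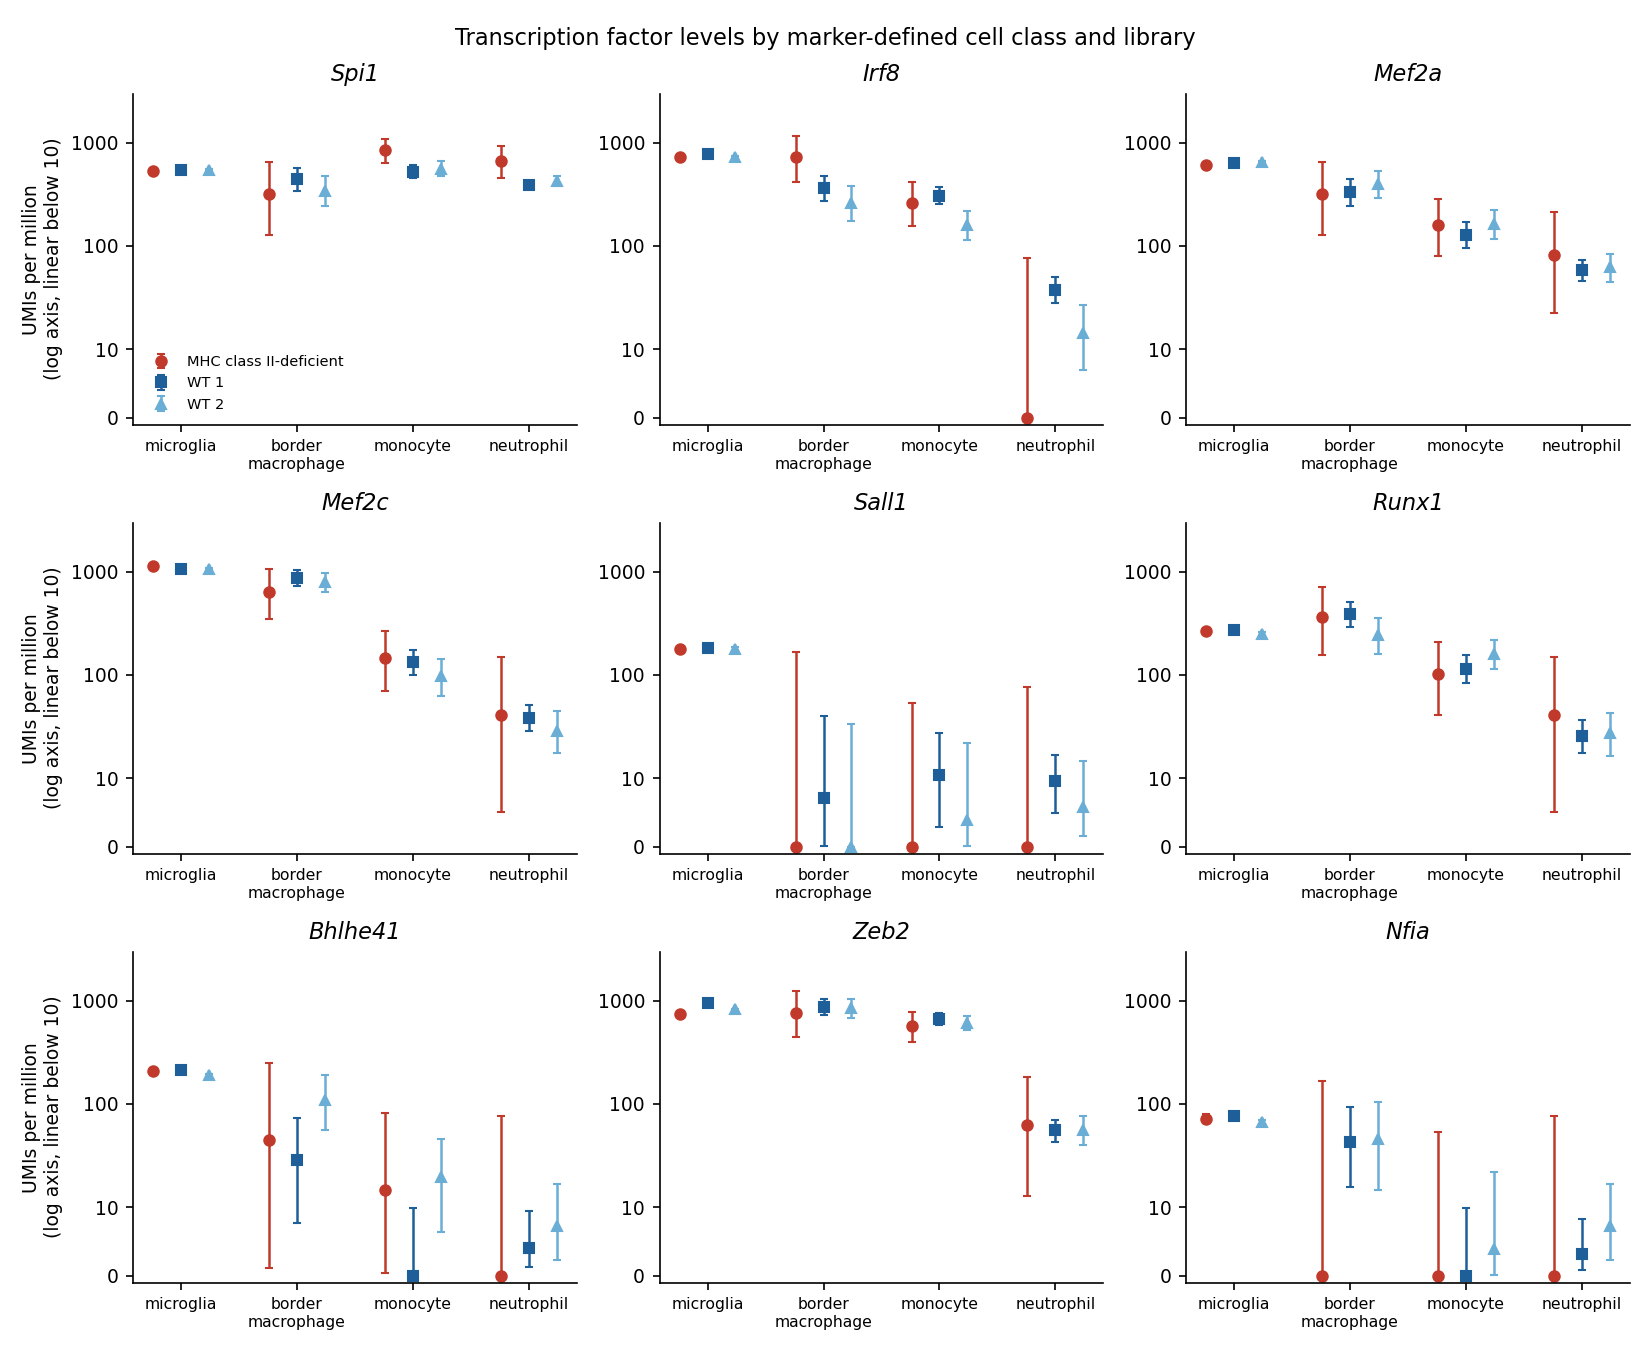
Level of each of the 9 factors (CPM, log axis that is linear below 10) in 4 marker-defined cell classes of the deficient library (red circles), WT 1 (dark blue squares) and WT 2 (light blue triangles), with exact Poisson 95% intervals that cover counting error only. The microglial values of the 3 libraries lie close together for every factor, Spi1 stays high in all classes, and Sall1 is at 0 to 10.7 CPM outside microglia. The deficient border macrophage values rest on 7 cells.

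In the edgeR quasi-likelihood test of UMI sums per library, with Benjamini-Hochberg adjustment over 11883 genes, 0 of the 9 factors were called, where 9.94% of all tested genes were called (277 higher and 904 lower). DESeq2 and limma voom called 0 factors as well, where they called 483 and 1058 of the 11883 tested genes. In edgeR, 1 factor, Zeb2, had an unadjusted p under 0.05, as did 2473 of all tested genes. The Zeb2 log2 fold change was -0.25 (SE 0.12, 95% interval -0.49 to -0.0069, edgeR adjusted p = 0.224). Its fold change was -0.15 without WT 1 and -0.34 without WT 2, and its adjusted p ran from 0.19 to 0.552 over the tested alternatives. The other 8 fold changes lay between -0.07 for Mef2a and 0.11 for Mef2c, with 95% intervals reaching about 0.2 to either side. For Sall1 the interval ran from -0.21 to 0.18 and for Spi1 from -0.26 to 0.19.

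The median absolute log2 fold change was 0.036 over the 9 factors and 0.18 over all tested genes. It was 0.12 over the 3257 tested genes that average 50 CPM or more, as all 9 factors do. The deficient value fell below the WT range for 5 factors, inside it for 3 and above it for 1, and 80.8% of all tested genes lay outside the range of the WT pair. In this fit the lone deficient library was assumed to vary like WT, and an interval that includes 0 leaves differences up to its bounds undecided. Simulated counts with a change of 0.5 on the log2 scale were called for 72.7% of raised and 42.7% of lowered genes, so changes of that size could also be missed.

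**Figure D2:**
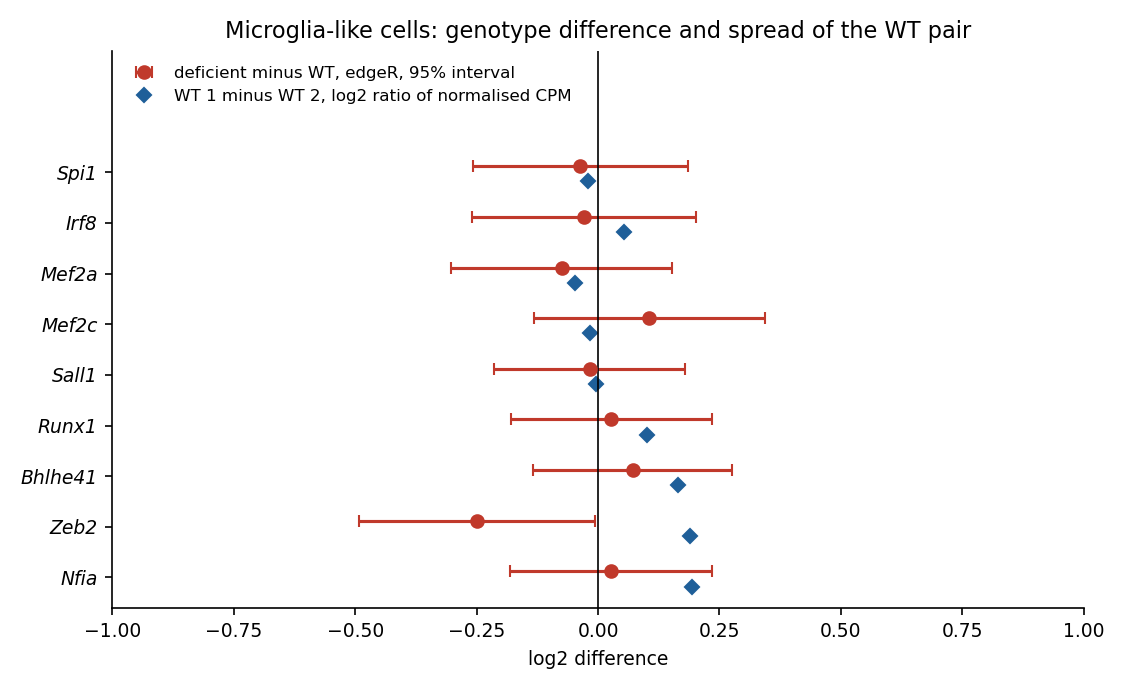
Log2 difference of each factor between the deficient library and WT in microglia-like cells (red circles, edgeR fold change with 95% interval) and the log2 ratio of WT 1 to WT 2 (blue diamonds). The intervals of 8 factors include 0, and that of Zeb2 ends at -0.0069, while WT 1 was 0.19 above WT 2 for Zeb2.

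Other transcripts did differ between these libraries in the same cells. Early-response genes, which cells switch on quickly after stimulation or tissue dissociation, made up a median of 0.196% of UMIs in deficient microglia-like cells, against 0.817% and 0.506% in WT 1 and WT 2. UMIs of the 10 neutrophil markers, all listed in each table, made up 0.00497% of the summed UMIs of deficient microglia-like cells, against 0.138% and 0.0695% in WT; the part of that difference in the genotype values was not tested. In microglia-like cells below the overall median of the early-response share, the Zeb2 fold change was -0.24 (edgeR adjusted p = 0.193).

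Within each library, microglia-like cells above the overall median of the early-response share (0.5296% of UMIs) were set beside those below it. Runx1 was higher in cells with a high share in all 3 libraries, with 319 CPM against 247 CPM in the deficient library, 287 against 239 CPM in WT 1 and 281 against 224 CPM in WT 2. These are log2 differences of 0.37, 0.26 and 0.32. Nfia was lower in cells with a high share by 0.17, 0.17 and 0.18 on the log2 scale in the deficient library, WT 1 and WT 2. Sall1 differed by -0.51 in the deficient library, -0.04 in WT 1 and -0.32 in WT 2. Mef2c was lower in cells with a high share in each library, by log2 differences of -0.12, -0.06 and -0.11. The values for Spi1, Irf8, Mef2a and Zeb2 lay between -0.09 and 0.03. These are descriptions of cell groups within 3 libraries, with no test, and the deficient library contributed 525 cells with a high share and 1655 with a low one.

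**Figure D3:**
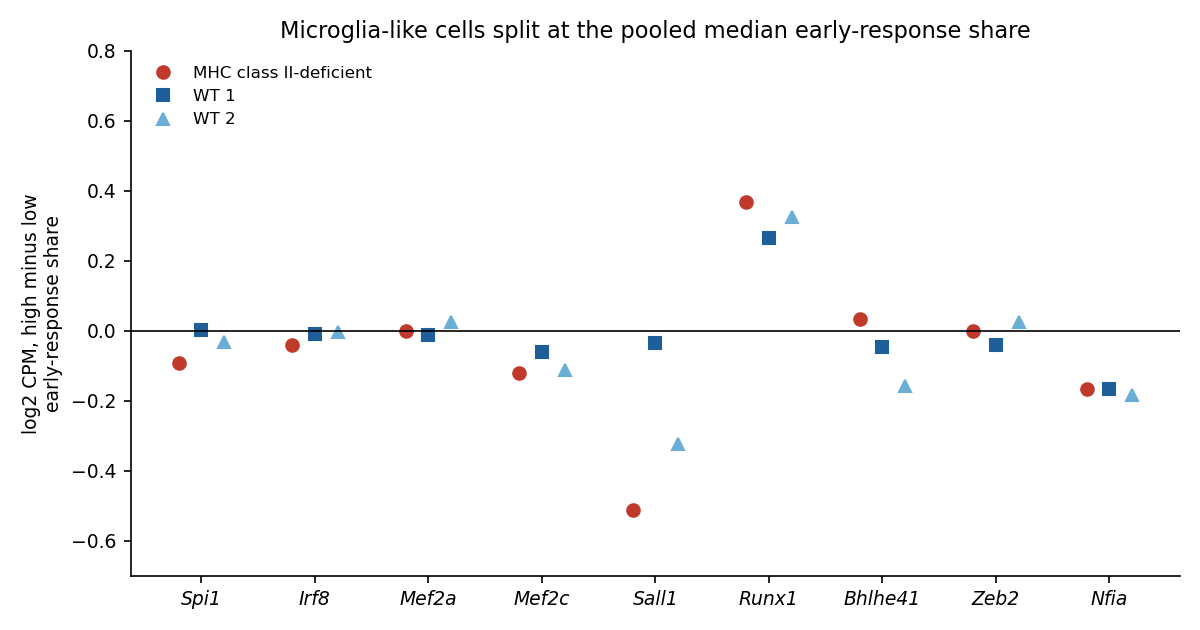
Log2 difference in CPM between microglia-like cells with a high and with a low early-response share, for each factor and library (deficient red circles, WT 1 dark blue squares, WT 2 light blue triangles). Runx1 is above 0 in all 3 libraries, Nfia and Mef2c are below 0 in all 3, and Sall1 ranges from -0.51 to -0.04.

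The classes were then compared within libraries, in 1 fit of 11 class sums with library as a block. The deficient border macrophage sum was left out because it held under 10 cells, so that contrast rests on the WT libraries alone. Fold changes are microglia-like minus the other class after TMM scaling, whereas the levels are plain CPM. The scales part company in neutrophil-like cells, where neutrophil markers took 47.2% of summed UMIs in the deficient library and 46.3% and 49.4% in WT, and where the TMM factors were 0.848 in the deficient library and 0.477 and 0.474 in WT.

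Against border macrophage-like cells, the macrophages of the meninges, perivascular spaces and choroid plexus, 3 of the 9 factors were higher in microglia-like cells and 0 were lower. Of 6538 tested genes, 15.5% were called, 6.91% higher and 8.58% lower. Higher genes were 44.6% of all calls with TMM and 58.2% with library totals, which moved the all-gene median to 0.31. The median log2 fold change was 0.47 over the factors and 0.09 over all tested genes. Sall1 had the widest separation with classes from marker genes. It stood at 181 and 180.0 CPM in WT microglia-like cells, whereas 1 UMI was found in 33 border macrophage-like cells of WT 1 and 0 in 25 of WT 2. Over both WT libraries this is a ratio of 45.4, with an exact binomial 95% interval from 8.15 to 1793 that covers counting error only. The edgeR log2 fold change was 5.27 (SE 0.79, adjusted p = 2.4e-09). With classes from Leiden clusters, where the border macrophage class held 74 and 70 WT cells and 15 deficient ones, it was 1.42 (adjusted p = 1.8e-06), level with Bhlhe41 at 1.42. Without WT 1 the border macrophage sum held 0 Sall1 UMIs, and no fold is given.

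Irf8 stood at 770.4 and 735 CPM in WT microglia-like cells, against 362 and 262 CPM in border macrophage-like cells of WT 1 and WT 2. Its log2 fold change was 1.11 (SE 0.35, edgeR adjusted p = 0.0159). In the deficient library Irf8 stood at 733 CPM in microglia-like cells, against 722 CPM in 7 border macrophage-like cells, with a Poisson interval from 413 to 1173 CPM. Bhlhe41 stood at 214 and 189 CPM in WT microglia-like cells, against 28.4 and 109 CPM in border macrophage-like cells, where its 16 UMIs came from 4 cells. Its log2 fold change was 1.42 (SE 0.41, edgeR adjusted p = 0.00609), 0.73 without WT 1 and 2.62 without WT 2, and DESeq2 did not call it (adjusted p = 0.113).

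The other 6 factors did not pass in this contrast. Runx1 stood at 273 and 252 CPM in WT microglia-like cells, against 391 and 244 CPM in border macrophage-like cells, a log2 fold change of -0.49 (SE 0.31). Zeb2 stood at 952 and 826 CPM in WT microglia-like cells, against 866 and 850.1 CPM in border macrophage-like cells, a log2 fold change of -0.15 that was 0.02 with library totals in place of TMM. Mef2c stood at 1066 and 1068 CPM in WT microglia-like cells, against 874 and 796 CPM in border macrophage-like cells. The fold changes of Mef2a (0.61), Nfia (0.47), Spi1 (0.19) and Mef2c (0.14) had 95% intervals that include 0, and for Nfia the interval ran from -0.50 to 1.44. Mef2a passed in edgeR with library totals (0.80, adjusted p = 0.0183), after thinning (1.09, adjusted p = 0.0221) and without the deficient library (0.58, adjusted p = 0.0269), and Nfia passed with Leiden clusters (0.92, adjusted p = 0.0171).
With either WT library left out, 1 border macrophage sum remained, of 25 cells without WT 1 and 33 cells without WT 2. Only fold changes are therefore given for those fits. Irf8 was 1.32 without WT 1 and 1.12 without WT 2, and Sall1 was 4.555 without WT 2. In a fit of all sums with no library block, Sall1 alone passed.

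Against monocyte-like cells, the blood-derived cells with classical or non-classical markers, 7 factors were higher in microglia-like cells and 0 were lower, where 50.9% of tested genes were called, 25.7% higher and 25.2% lower. Higher genes were 50.5% of all calls with TMM and 62.2% with DESeq2 size factors, which moved the all-gene median to 0.32. The median log2 fold change was 1.95 over the factors and 0.07 over all tested genes. Nfia, Sall1 and Bhlhe41 were close to undetected in monocyte-like cells. Nfia had 0 UMIs in 18 deficient cells, against 0 in 50 cells of WT 1 and 1 in 38 cells of WT 2. Sall1 had 0 UMIs in deficient cells, against 4 and 1 in the WT pair, and Bhlhe41 had 1 in deficient cells, against 0 and 5 in the WT pair. Their log2 fold changes were 5.43 (SE 0.75) for Nfia, 4.49 (SE 0.46) for Sall1 and 4.35 (SE 0.44) for Bhlhe41, with the highest edgeR adjusted p at 1.4e-11. For Nfia, with 1 UMI in WT monocyte-like cells, the WT ratio was 44.9 with a binomial 95% interval from 8.05 to 1774. All 3 passed under every alternative that tested them, at sizes that varied. Sall1 ran from 3.31 with Leiden clusters to 5.75 without WT 1. Bhlhe41 was 3.32 without WT 1, 6.30 without WT 2 and 6.35 without the deepest cells. Nfia was 3.67 with Leiden clusters and 4.34 without WT 1, and without WT 2 its monocyte sums held 0 UMIs, so that no fold is given there.

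The MEF2 factors and Irf8 were measurable in monocyte-like cells at lower levels. Mef2c stood at 145 CPM in the deficient library, against 134 and 97.3 CPM in WT, and was 8.01-fold higher in microglia-like cells (SE of the log2 fold change 0.34). Mef2a stood at 159.6 CPM in the deficient library, against 128 and 163 CPM in WT, and was higher in microglia-like cells by 1.95 on the log2 scale (SE 0.30). Irf8 stood at 261 CPM in the deficient library, against 307 and 159.5 CPM in WT, and was higher in microglia-like cells by 1.54 (SE 0.29, edgeR adjusted p = 1.2e-06, 0.103 without WT 2).

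Runx1 stood at 102 CPM in deficient monocyte-like cells, against 115 and 159.5 CPM in WT. It was higher in microglia-like cells by 0.85 on the log2 scale (SE 0.27, edgeR adjusted p = 0.00529), and did not pass without WT 1 (adjusted p = 0.235) or without WT 2 (adjusted p = 0.150). Zeb2 stood at 566 CPM in deficient monocyte-like cells, against 668 and 611 CPM in WT. Its log2 fold change of 0.30 (SE 0.30, edgeR adjusted p = 0.405) did not pass, although DESeq2 called it (0.53, adjusted p = 0.00464), as did edgeR with DESeq2 size factors (0.53, adjusted p = 0.0326) and after thinning (1.11, adjusted p = 0.0001). Spi1 stood at 841 CPM in deficient monocyte-like cells, against 524 and 560.3 CPM in WT, with a log2 fold change of -0.34 (SE 0.30, edgeR adjusted p = 0.351). The deficient value of Spi1 lay above both WT values, with Poisson intervals of 639 to 1088 CPM in the deficient library, 453 to 602 CPM in WT 1 and 473 to 660 CPM in WT 2.

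The makeup of the monocyte class differed between the libraries. Of 18 deficient monocyte-like cells, 6 carried classical and 9 non-classical markers and 3 carried both, against 41, 5 and 4 of 50 cells in WT 1 and 28, 9 and 1 of 38 cells in WT 2. Over the WT libraries, Spi1 stood at 901 CPM in non-classical cells, against 489.5 CPM in classical cells, with Poisson intervals of 662 to 1198 and 433 to 551 CPM. Spi1 stood at 772 CPM in deficient non-classical cells, against 1001 and 839 CPM in WT, and at 928 CPM in deficient classical cells, against 495 and 481 CPM in WT. Mef2a over the WT libraries stood at 326 CPM in non-classical cells, against 131 CPM in classical cells, with Poisson intervals of 189.8 to 522 and 103 to 165 CPM. These WT subsets held 14 and 69 cells, and the intervals cover counting error only. In WT 1 alone Mef2a had 5 UMIs in 5 non-classical cells. Its interval there ran from 81.3 to 584 CPM and overlapped that of classical cells, 92.8 to 173 CPM. Mef2a was named because its pooled intervals lay apart, and how many of all genes do so was not counted.

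Against neutrophil-like cells, 8 factors were higher in microglia-like cells and 1, Spi1, was lower, where 62% of tested genes were called (32.3% higher and 29.8% lower). The median log2 fold change was 2.60 over the factors and 0.12 over all tested genes. Higher genes were 52% of all calls with TMM, 68.7% with DESeq2 size factors, which moved the all-gene median to 0.62, and 85.8% with library totals, which moved it to 1.55. With library totals the Spi1 fold change turned to 0.26 (edgeR adjusted p = 0.241), while the other 8 factors stayed higher in microglia-like cells under all 3 scalings. Spi1 stood at 660.5 CPM in deficient neutrophil-like cells, against 393 and 429 CPM in WT, and at 529.9 CPM in deficient microglia-like cells, against 546 and 548 CPM in WT. Its TMM log2 fold change was -1.02 (SE 0.30, edgeR adjusted p = 0.00184), and it did not pass without WT 1 (-1.01, adjusted p = 0.133) or without WT 2 (-0.94, adjusted p = 0.274). Among neutrophil-like cells 64.7% had a Spi1 UMI in the deficient library, against 70.5% and 72.2% in the WT pair, and 0% had an Irf8 UMI in the deficient library, against 10.7% and 5.26% in the WT pair.

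The other 8 factors had few UMIs in neutrophil-like cells. Irf8 had 0 UMIs in 17 deficient neutrophil-like cells, against 37.8 CPM (47 UMIs) and 14.5 CPM (10 UMIs) in WT. The 3-count limit of the deficient sum was 61.9 CPM, above both WT levels. Mef2c stood at 41.3 CPM (2 UMIs) in the deficient library, against 38.6 and 28.9 CPM in WT, and Zeb2 at 61.9 CPM (3 UMIs), against 55.4 and 56.4 CPM. Log2 fold changes were 3.88 for Bhlhe41, 3.59 for Mef2c, 3.55 for Irf8, 3.10 for Sall1, 2.60 for Zeb2, 2.55 for Nfia, 2.02 for Mef2a and 1.91 for Runx1, with edgeR adjusted p at or below 7.1e-08. With each library left out in turn all 8 passed, and Irf8 ran from 3.30 to 4.49 and Nfia from 2.01 to 3.22.

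**Figure D4:**
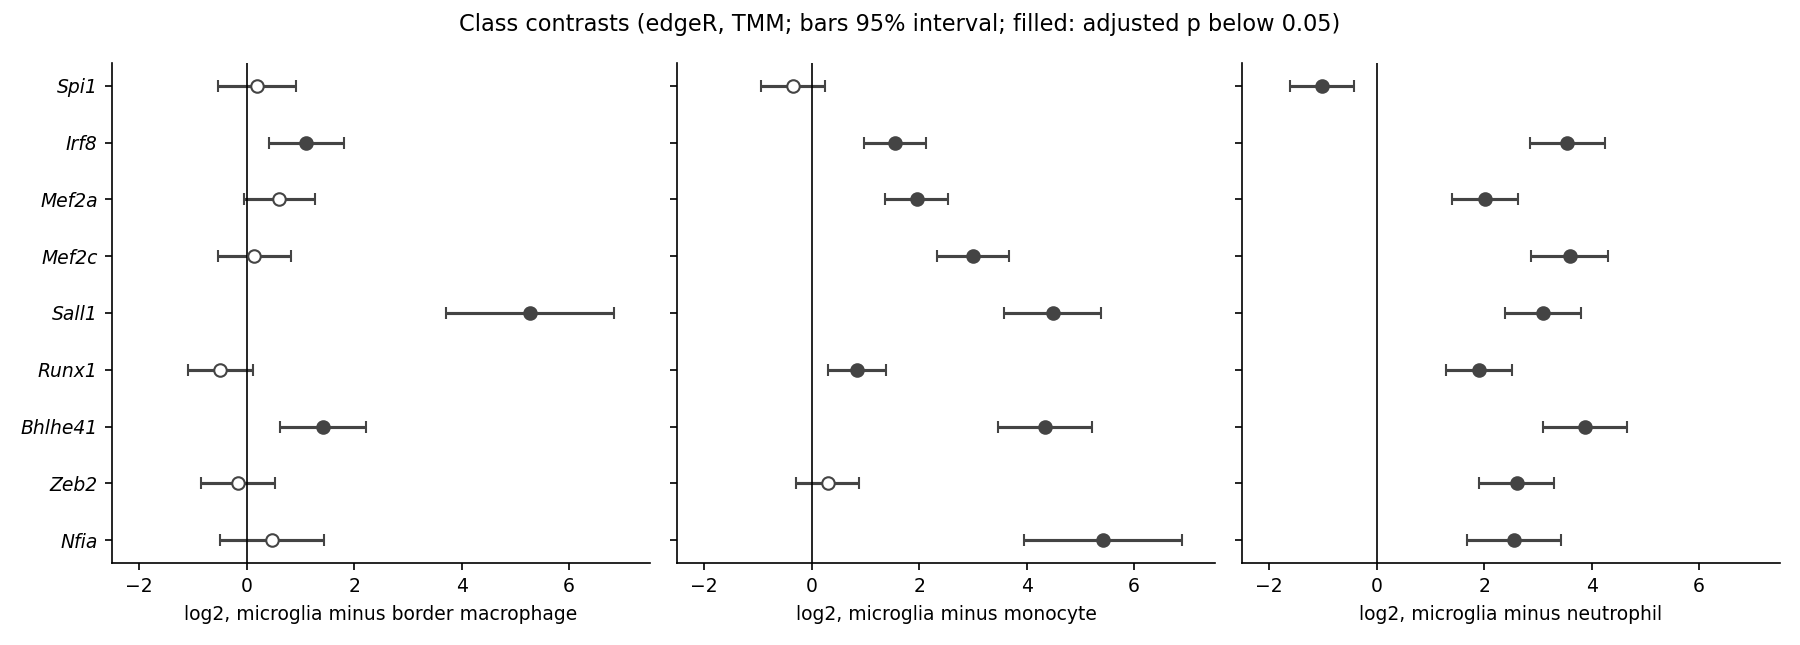
Log2 fold change of each factor in microglia-like cells against border macrophage-like, monocyte-like and neutrophil-like cells (edgeR with TMM scaling, bars are 95% intervals, filled points have an adjusted p below 0.05). Sall1, Irf8 and Bhlhe41 are filled and to the right of 0 in all 3 panels, and Spi1 is filled to the left of 0 against neutrophil-like cells, a direction that library totals turn.

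Droplets also take up RNA released from other cells, so transcripts of microglia can appear in other classes at a low level. Complement C1qa, C1qb and C1qc, Sparc and Olfml3, genes of macrophages or microglia, stood in deficient neutrophil-like cells at 0 to 0.972% of their microglial CPM, against 3.67 to 5.13% in WT 1 and 3.08 to 4.07% in WT 2. In WT neutrophil-like cells, Irf8 (4.90 and 1.97%), Mef2c (3.62 and 2.71%), Sall1 (5.32 and 3.21%) and Bhlhe41 (1.87 and 3.82%) lay at or near that level, and no expression of these 4 in neutrophils is read from their UMIs. Runx1 (9.42 and 10.9%) and Mef2a (9.01 and 9.47%) lay above it in both WT libraries. Zeb2 (5.82 and 6.83%) lay less far above, on 69 UMIs from 32 cells in WT 1 and 39 UMIs from 20 cells in WT 2. Its WT 1 value was near the upper end of 5.13% there, and whether it exceeded released RNA was not tested. Nfia stood at 4.198 and 10.9% in WT, on 4 and 5 UMIs. The CPM share is not corrected for the marker load of neutrophil-like cells. Spi1, at 125% in the deficient library and 72.0 and 78.4% in WT, was far above it.

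In monocyte-like cells the same genes stood at 0.498 to 1.93% of the microglial CPM in deficient cells, against 1.98 to 3.64% and 2.85 to 4.65% in the WT pair. Sall1 stood at 0% in deficient cells, against 5.89 and 2.16% in the WT pair, and Nfia at 0% in deficient cells, against 0 and 5.87% in the WT pair. Bhlhe41 stood at 6.89% in deficient cells (1 UMI), against 0 and 10.3% in the WT pair (0 and 5 UMIs). With so few UMIs, Sall1, Nfia and Bhlhe41 there are not told apart from released RNA. Mef2c (12.7% in the deficient library, 12.5 and 9.11% in WT), Mef2a, Irf8, Runx1, Zeb2 and Spi1 lay above that range in all 3 libraries. In border macrophage-like cells Sparc and Olfml3 stood at 0 to 3.55% in deficient cells, against 1.42 to 8.81% in the WT pair, and Sall1 (0% in the deficient library, 3.92 and 0% in WT) was the 1 factor that lay above that range in no library.

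**Figure D5:**
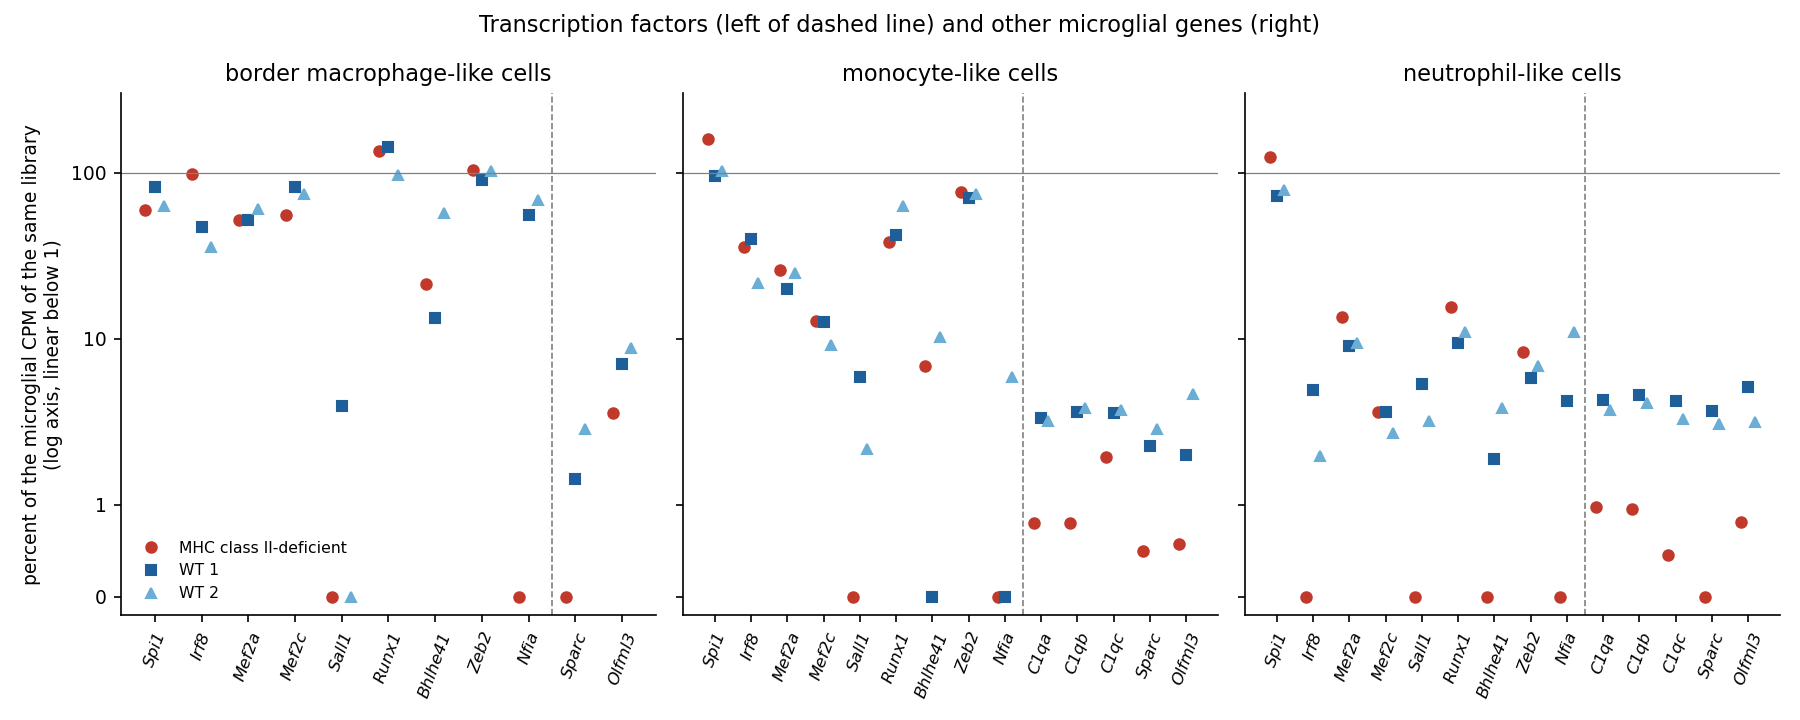
CPM of each factor in 3 cell classes as a percent of its microglial CPM in the same library (log axis, linear below 1), with other microglial genes right of the dashed line, for the deficient library (red circles), WT 1 (dark blue squares) and WT 2 (light blue triangles). In neutrophil-like cells Spi1 stands at 72.0% or more and the other factors at 15.5% or less.

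Whether the genotype difference of a factor was unlike that in microglia was tested as an interaction in monocyte-like and neutrophil-like cells. In edgeR, 0 factors were called in either class, where 0.253% of 7499 tested genes were called in monocyte-like cells (0.2% higher and 0.0533% lower) and 3.28% in neutrophil-like cells (0.373% higher and 2.91% lower). At an unadjusted p under 0.05 there were 0 factors for monocyte-like and 1 for neutrophil-like cells, Irf8, whose deficient sum had 0 UMIs. In neutrophil-like cells 12.6% of tested genes had a smaller p than Irf8. In monocyte-like cells the lowest p among the factors was that of Runx1, and 27.4% of tested genes had a smaller one. The median interaction over the factors was -0.11 in monocyte-like and -0.80 in neutrophil-like cells, and over all tested genes it was -0.40 and -5.73. The deficient neutrophil sum held 48450 UMIs, and a gene with 0 UMIs in a sum gets a large fold of no defined size. Irf8 and Sall1, with 0 UMIs there, had interactions of -11 (SE 5.1) and -9.29 (SE 7.43). These medians are therefore not read as genotype differences of neutrophils. For Spi1 the interaction was 0.34 in monocyte-like cells (95% interval -0.34 to 1.02) and -0.24 in neutrophil-like cells (-0.98 to 0.50). With 18 and 17 deficient cells, differences within those bounds were not detectable, and the intervals of the other 8 factors were wider.

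Relatives and partners of the factors were examined as a list of 44 further lineage regulators, of which 35 were tested for genotype in microglia-like cells. Of these, 0 rose, 6 fell and the remaining 29 were not called in edgeR. Their median log2 fold change was -0.23, and 2.33% of all tested genes rose and 7.61% fell. Of the direct relatives of the 9 factors, 0 of 8 ETS, 0 of 7 IRF, 0 of 1 MEF2, 0 of 2 NFI and 0 of 4 SALL, ZEB and BHLHE genes passed. Cbfb, the partner subunit that RUNX proteins need for stable DNA binding, fell to 36.0 CPM in the deficient library, against 54.9 and 55.5 CPM in WT (log2 fold change -0.61, SE 0.12, edgeR adjusted p = 0.000205). The most abundant ETS relative Fli1 stood at 190.5 CPM in the deficient library, against 197 and 193 CPM in WT, and the most abundant IRF relative Irf5, a mediator of inflammatory gene expression, at 273 CPM, against 308 and 304 CPM. Neither passed, nor did Ets2, Irf4, Mef2d, Nfic, Nfix, Sall3 or Bhlhe40.

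C/EBP factors and Klf4 were also among the genes of the list that fell. Cebpa, a myeloid lineage factor, stood at 30.5 CPM in the deficient library, against 548 and 446 CPM in WT (log2 fold change -4.02, SE 0.15, edgeR adjusted p = 1.2e-20). Klf4, a zinc finger factor of monocytes and of early responses, stood at 29.7 CPM in the deficient library, against 310.0 and 249.8 CPM in WT. Cebpb (log2 fold change -3.05) and Cebpd (-0.64) fell too. In cells below the median early-response share, the log2 fold changes of Cebpa and Klf4 were -3.63 and -1.92. There 7 of 33 tested regulators fell, where 755 of 10863 tested genes were called in either direction. The 7 include a gene of the early-response list itself. Its fold there comes from values that the choice of cells used, so it is no separate result.
Of 8 known targets of PU.1 or IRF8 in macrophages, 0 passed the genotype test in edgeR, with a median log2 fold change of 0.00. With 9.94% of all tested genes called, a count of 0 among 8 is not read as a result about these targets. The most abundant were Ctss, a lysosomal protease (7721 CPM in the deficient library, against 7452 and 7636 CPM in WT), Csf1r, the receptor for the microglial survival factor CSF1 (3755 CPM, against 3750 and 3964 CPM), and Cd68, a lysosomal glycoprotein (895 CPM, against 752 and 789.5 CPM). The widest target difference, named after its value was seen, was that of Cybb, a subunit of the phagocyte NADPH oxidase, with 2.202 CPM in the deficient library, against 5.667 and 4.204 CPM in WT (log2 fold change -1.14, SE 0.39, edgeR adjusted p = 0.0558). The Cybb fold change was -0.27 in low early-response cells. In microglia-like minus neutrophil-like cells its log2 fold change was -8.63 (SE 0.43). Released neutrophil RNA, which differed between the libraries, may add to its few UMIs in microglia-like cells, and that part was not tested.

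In the class contrasts, 6 of 32 tested regulators were higher in microglia-like than in border macrophage-like cells and 6 were lower. Of all tested genes, 6.91% were higher and 8.58% lower there. Against monocyte-like cells 12 regulators were higher and 9 lower, beside 25.7% and 25.2% of all tested genes. Against neutrophil-like cells 11 were higher and 11 lower, beside 32.3% and 29.8%, so these last counts were near the all-gene shares. Sall3, a relative of Sall1, was among those higher against all 3 classes, with 71.9 CPM in deficient microglia-like cells and 78.3 and 70.7 CPM in WT. Nfic was higher in microglia-like cells against monocyte-like cells by 1.58 (SE 0.31) and against neutrophil-like cells by 1.78 (SE 0.31) on the log2 scale, and did not pass against border macrophage-like cells (0.97, SE 0.41).

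The genes whose levels followed each factor most closely over the 12 class sums (log2 of CPM plus 1) were found by Pearson correlation among 4999 genes. The points share 3 libraries and 4 classes, so the values are descriptions of class pattern. They include the deficient border macrophage sum of 7 cells, which the class fit left out. Sall1 and Nfia had 0 UMIs in that sum and in the deficient neutrophil sum. How far such zeros set the r values was not tested. Sall1 was most like Phgdh (r = 0.990) and Mlph, Nfia most like Ppp1r9a (r = 0.992) and Chst7, Irf8 most like Idh2 (r = 0.994) and Aftph, and Bhlhe41 most like Snx29 and Gtf2i (r = 0.947 each). Mef2a and Mef2c had the same nearest gene, Cyth4 (r = 0.992 and 0.984), followed by Fcgr3 for Mef2a and Gpr183 for Mef2c. Runx1 was most like Ifnar2 (r = 0.984) and Hspa5, Zeb2 most like Stard3nl (r = 0.978) and Clta, and Spi1, with the flattest class pattern, most like Parp11 (r = 0.944) and Gstp1.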

How the data were processed

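CD11b+ CD45+ brain cells of 3 libraries were measured with the 10x Genomics 3′ kit, 1 library MHC class II-deficient and 2 WT. The authors deposited unnormalised UMI counts, 1 table of genes by cell barcodes per library, and Cell Ranger 3.0, Seurat 2.2 and build mm10 are named per the submitters' processing notes; the sources used here give neither the authors' filters on cells nor the strand of counting. The deposited tables held 2278 deficient barcodes with 6616662 UMIs, and 4589 and 4815 WT barcodes with 16230216 and 17293844 UMIs.

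Cells were retained from 500 UMIs and 200 detected genes upwards, with mitochondrial UMIs up to 10%. Classes were set by marker UMI shares: neutrophil markers at 10% or more, border macrophage and classical monocyte markers at 0.2%, non-classical monocyte markers at 0.1% and microglial markers at 0.6%, each but the neutrophil class with at least 3 markers seen. These cut-offs were chosen after the values had been seen, no doublet caller was run, and cells that met more than 1 class were left out, except that the neutrophil class took precedence over the monocyte class. Cells were not treated as replicates: counts were summed per library and class (at least 10 cells) and tested with edgeR 4.0.16 (quasi-likelihood, TMM, filterByExpr, Benjamini-Hochberg adjustment over all tested genes at 0.05) in R 4.3.3. The genotype fit had 1 residual degree of freedom, the class fit 5 (library as block) and the interaction fit 3. Nothing in the labels says that the WT libraries came from separate animals, so the spread between these libraries may be technical. The edgeR fits also borrow spread across all tested genes, so p-values and intervals do not measure the spread of 1 factor alone. For Sall1 the genotype SE was 0.097, while the log2 ratio of WT 1 to WT 2 was -0.0051. Poisson and binomial intervals, and the limit of 3 counts for a sum at 0, cover counting error only.

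Alternatives were DESeq2 1.42.0, limma 3.58.1 (voom), DESeq2 size factors, library totals, no low-count filter, a stricter cell filter, thinning to 1000 UMIs, Leiden clusters (scanpy 1.11.5), a raised marker threshold, the deepest cells left out, low early-response microglia, all retained cells, no library block, and each library left out. The genotype test on simulated counts recovered 100% of changes of 1 on the log2 scale, and 4.82% of its calls were false. The simulation gave every gene and library the same spread and changed no gene of low level. Its shares hold for those settings and do not measure false calls in these libraries. The text names all 9 factors, the genes most like each by correlation over class sums, and from each regulator group the most abundant gene and the one with the largest genotype fold; the remaining C/EBP genes that fell were named after their values were seen, and some genes that the rule or a list would name are not reported here. The factors and lists were chosen with earlier results of these data known.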

Additional observations from a re-analysis of the deposited data

Results flagged for a closer look

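Bhlhe41 values differed in sign between the genotypes when microglia-like cells with a high early-response share were set beside those with a low share. The log2 difference was 0.0349 in the deficient library, against -0.0473 in WT 1 and -0.158 in WT 2. The deficient difference was small, with 214 CPM against 209 CPM. Mef2a (-0.012 and 0.026) and Zeb2 (-0.039 and 0.025) differed in sign between WT 1 and WT 2 themselves. The difference between the genotypes was not tested, and the deficient value rests on 1 library.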

How the results depend on the processing

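No paired analysis was possible because the genotype groups share fewer than 2 replicate numbers. In microglia-like cells 0 factors were called by genotype under all 12 tested alternatives. Of 126 alternative fold changes 11 turned sign: Sall1 0.0063 and Runx1 -0.036 after thinning, Nfia -0.0021 at the raised marker threshold, Sall1 0.019 and Nfia -0.0045 in low early-response cells, Irf8 0.029 and Sall1 0.038 over all retained cells, Irf8 0.00077 without WT 1, and Runx1 -0.024, Bhlhe41 -0.011 and Nfia -0.07 without WT 2. Against border macrophage-like cells 1 factor was called with no library block, and 4 without the deficient library. Zeb2 there turned to 0.021 with library totals, 0.042 with no low-count filter, 0.012 after thinning and 0.011 with Leiden clusters, and with each library left out Runx1 ran from -0.68 to 0.063 and Spi1 from -0.00096 to 0.49. Spi1 turned to 0.16 against monocyte-like cells after thinning, and to 0.26 against neutrophil-like cells with library totals; the cause was not tested. The factors called numbered 5 to 8 against monocyte-like and 7 to 9 against neutrophil-like cells. Thinning left Sall1 and Nfia untested in the class contrasts.

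Counts over all genes moved more: for genotype 1181 calls became 483 with DESeq2, 750 after thinning, 763 at the raised threshold and 755 in low early-response cells. Against border macrophage-like cells 1013 became 391 after thinning and 1538 with Leiden clusters. Without WT 1 or WT 2 that contrast held 1 border macrophage sum, and no count is given. Against monocyte-like cells 3327 became 855 after thinning, 1585 without WT 1 and 1510 without WT 2, and against neutrophil-like cells 4055 became 974, 2069 and 2082 under the same changes. Sums of 25 and 33 border macrophage-like and 18 to 50 monocyte-like cells limit the depth of those contrasts.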
